A study of Mus musculus with 27 samples.

Results

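The genes described here are those of MHC class II antigen presentation, in RNA of the left lung lobe of mice with house dust mite airway sensitization. Members were the rows of the deposited table of linear RNA whose symbol is H2-Aa, H2-Ab1, H2-Eb1, H2-Eb2, Cd74, Ciita, H2-DMa, H2-DMb1, H2-Oa or H2-Ob. All 10 were found among the table's 21742 symbols, and all 10 were among the 17437 that passed a filter of at least 1 TPM, a length-corrected share of a library's transcripts, in at least 5 of 27 libraries. The libraries were of BALB/c AnNHsd mice aged 87 days, in 4 groups. Dex_CDGHDM (n = 6) were sensitized with house dust mite extract plus cyclic di-GMP, a mucosal adjuvant, and given dexamethasone, a glucocorticoid, intraperitoneally at 3 mg/kg on days 11, 18 and 25 of a protocol of 35 days. AM155 (n = 6) were given an antisense oligonucleotide against miR-155 in TheraSilence lipid nanoparticles, intravenously at 2 mg/kg on those same days. CDG_HDM (n = 10) were sensitized only, and Saline (n = 5) were unsensitized. The treatment label of AM155 does not itself say that those mice were sensitized, and no group given nanoparticles alone, another oligonucleotide or a dexamethasone vehicle was used here.

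MHC class II molecules are pairs of an alpha and a beta chain that show peptides from the endosome to CD4 T cells. The invariant chain, encoded by Cd74, fills the groove of new molecules, cathepsin S trims it to a short remnant, and the H2-DM heterodimer swaps that remnant for peptide. H2-O binds H2-DM and restrains it, mainly in B cells. Ciita, the class II transactivator, binds no DNA itself but docks on proteins held at the X and Y boxes of class II promoters. In the lung, class II is made by dendritic cells, B cells and macrophages, and also by alveolar type 2 cells.

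Promoter entries of 7 members were used from the RefSeq tables of build GRCm38.p6, with 250 bases before the gene start searched. No entry of H2-Ab1, Cd74 or Ciita was used. Of the 7 members, 6 held GNAAC followed 25 to 28 bases later by ATTGG, the reverse complement of the Y box core CCAAT. These stretches are printed because the pair was held by some members that varied together (H2-Aa, H2-Eb1 and H2-DMb1) and also by H2-Ob, which varied differently. Capitals mark the GNAAC and ATTGG letters, and each run is read 5′ to 3′ on the gene's strand.
H2-Aa, chr17:34287859-34287912, minus strand: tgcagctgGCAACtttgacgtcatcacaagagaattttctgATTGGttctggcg
H2-Eb1, chr17:34305768-34305820, plus strand: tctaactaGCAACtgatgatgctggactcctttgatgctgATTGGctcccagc
H2-Eb2, chr17:34325535-34325587, plus strand: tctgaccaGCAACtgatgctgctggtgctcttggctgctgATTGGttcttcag
H2-DMb1, chr17:34153089-34153142, plus strand: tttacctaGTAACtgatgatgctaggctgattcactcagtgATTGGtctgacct
H2-Oa, chr17:34092295-34092348, plus strand: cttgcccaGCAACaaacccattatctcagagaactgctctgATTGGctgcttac
H2-Ob, chr17:34238810-34238860, plus strand: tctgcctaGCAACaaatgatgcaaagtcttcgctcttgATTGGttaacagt

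The pair of letters was found in 193 of 32851 promoters of the same length in that table, or 0.588%, on either strand. Its spacing and letters were chosen after these sequences were seen, so the count is a description. H2-DMa, with 2 promoter entries, did not hold the pair in the stretches searched. A stricter search for ACNGATG followed 14 to 26 bases later by ATTGG matched 3 members, H2-Eb1, H2-Eb2 and H2-DMb1, and 0.103% of all promoters. An interferon response element pattern, held by 2.98% of promoters, was in none of the 8 member promoters searched. These are too few for its absence to be informative, and the Ciita promoter was not among them. The windows lie before the RefSeq start, but the GENCODE annotation of the same build starts H2-DMb1 before its window and H2-Oa inside it. It starts H2-DMa at 34119541, before both stretches searched for that gene (34122582-34122831 and 34125268-34125517). The bases before that H2-DMa start were therefore not searched. All 8 H2 members lie on chromosome 17 between 34092340 and 34341412, and Ciita lies at chr16:10480059-10528418. The sequences are of the C57BL/6J reference, whereas the mice were BALB/c, which carry other class II alleles, and what this did to the authors' values was not tested.

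Library-wide values bear on how the levels are read. The share of TPM outside the deposited tables was 13.0% to 27.9% in Dex_CDGHDM, 13.8% to 27.7% in AM155, 15.2% to 32.8% in CDG_HDM and 9.57% to 11.1% in Saline libraries. In 3 libraries, AM155 5, AM155 6 and Dex_CDGHDM 4, circular RNA held over 200000 TPM, and Saline 4 had the lowest linear sum of its group. Counts of members called were identical without these 4 libraries. Lung markers (Sftpc, Scgb1a1, Ager, Foxj1) were present throughout, with a summed level of 32195 to 98309 TPM.

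Sensitization came with higher RNA of nearly the whole presentation pathway. In CDG_HDM against Saline lungs, 9 of 10 members were higher and 0 lower at an adjusted p under 0.05, where 9.35% of the 17437 genes tested were higher and 22.8% lower (limma on log2(TPM + 1), Benjamini-Hochberg over all genes). The median log2 change of the 10 members was 1.64, against -0.10 over all genes tested. In 8 of 10 members every CDG_HDM library lay above every Saline library, as it did in 5.06% of all genes. The exceptions were H2-Oa and H2-Ob, the chains of the H2-DM inhibitor. In whole tissue, more cells of a type and more RNA per cell cannot be told apart.

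**Figure D1:**
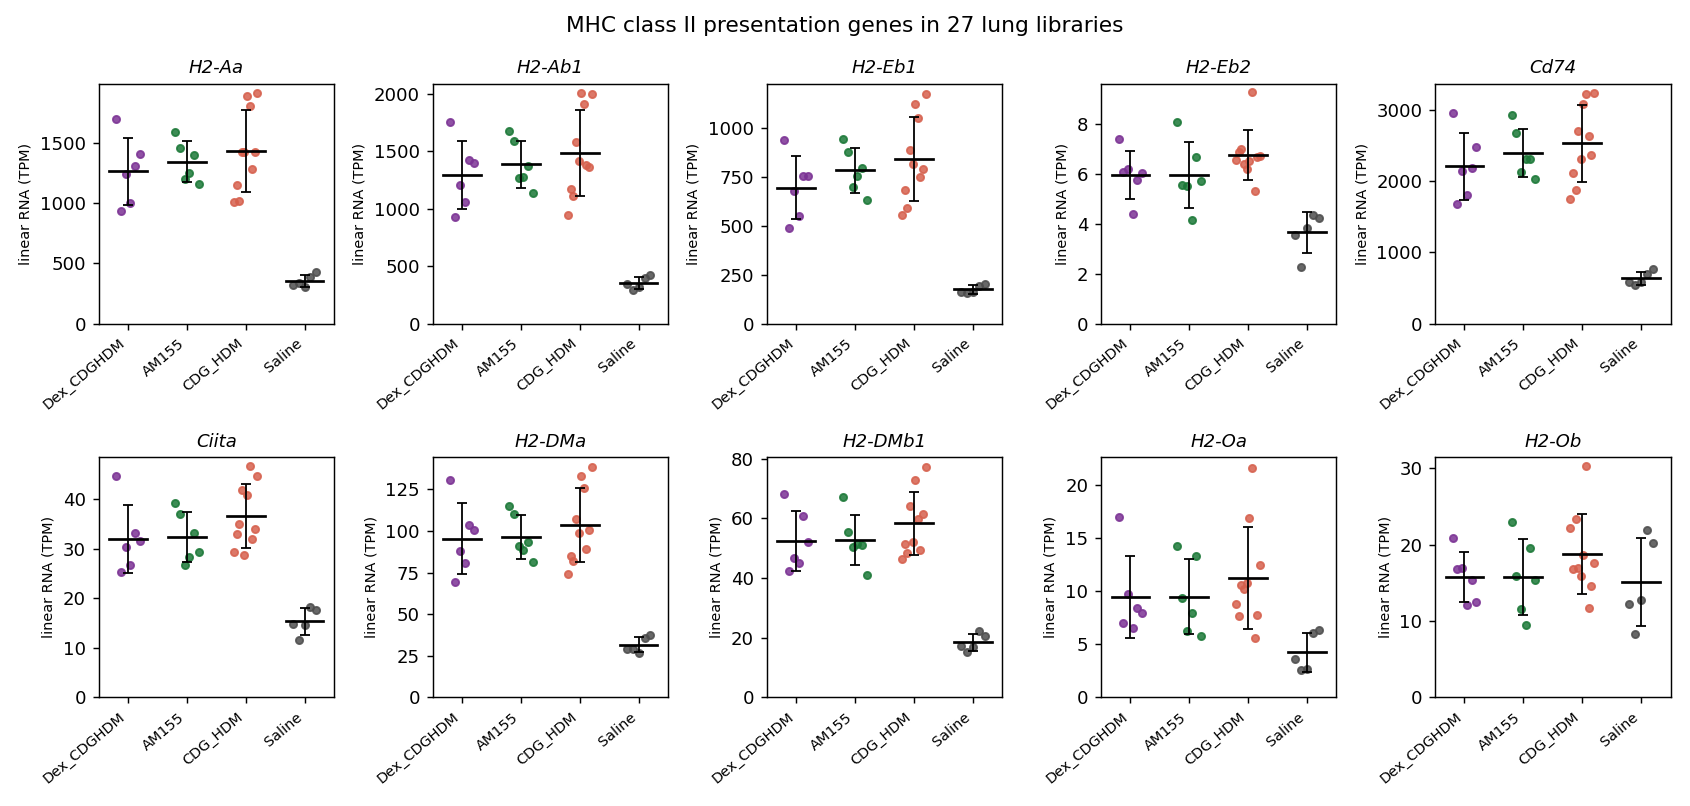
Level of each class II member in every library (points, TPM of linear RNA, 1 panel per gene, axes from 0), with the mean (bar) and SD (whisker) of each group: Dex_CDGHDM (n = 6), AM155 (n = 6), CDG_HDM (n = 10) and Saline (n = 5). In 8 panels all CDG_HDM points lie above all Saline points, and in the H2-Oa and H2-Ob panels they overlap.

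The classical chains showed the biggest changes among the members. H2-Aa, the alpha chain of I-A, had 1008, 1423 and 1911 TPM as the lowest, median and highest CDG_HDM level, against 320.0, 334, 303, 385 and 428 TPM in the 5 Saline lungs. H2-Ab1, its beta chain partner, had 948, 1397 and 2004 TPM in CDG_HDM lungs, against 341, 289, 322, 397 and 420.0 TPM in Saline lungs. The lowest CDG_HDM lung was thus above the highest Saline lung for both chains, and their log2 changes were close, 1.99 ± 0.147 for H2-Aa (SE, adjusted p = 2.25e-11) and 2.04 ± 0.157 for H2-Ab1 (SE, adjusted p = 4.89e-11).

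H2-Eb1, the beta chain of I-E, had the largest estimate of the 10 members. Its lowest, median and highest levels were 556, 802 and 1177 TPM in CDG_HDM lungs, against 160.2, 158, 159, 194 and 205 TPM in Saline lungs. The log2 change was 2.23 ± 0.156 (SE, adjusted p = 9.05e-12), a ratio of mean TPM of 4.81, and it ranked 25 from the top of 17437 genes. H2-Eb2, a neighbouring second E beta gene, had 5.33, 6.63 and 9.29 TPM in CDG_HDM lungs, against 3.56, 2.27, 3.84, 4.37 and 4.25 TPM in Saline lungs. It was the lowest of the 10 members in level and changed less, by 0.75 ± 0.119 (SE, adjusted p = 1.48e-05). How reads of similar class II genes were divided between them is not given in the sources used here.

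Cd74, the invariant chain, was the most abundant member in every library. It had 1748, 2499 and 3232 TPM in CDG_HDM lungs, against 586, 546, 586, 693 and 764 TPM in Saline lungs. The groups did not overlap, and the log2 change was 1.97 ± 0.142 (SE, adjusted p = 1.42e-11). Together the 10 members made up 0.564% to 1.17% of all linear TPM in CDG_HDM lungs, against 0.172% to 0.228% in Saline lungs.

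The H2-DM chains, which load peptide, also rose, with smaller log2 changes than the classical chains. H2-DMa had 74.4, 99.8 and 139 TPM in CDG_HDM lungs, against 29.3, 29.2, 26.7, 35.4 and 37.2 TPM in Saline lungs, a log2 change of 1.66 ± 0.138 (SE, adjusted p = 2.09e-10). H2-DMb1 had 46.4, 55.9 and 77.3 TPM in CDG_HDM lungs, against 17.4, 15.1, 16.7, 22.4 and 20.4 TPM in Saline lungs, a log2 change of 1.61 ± 0.126 (SE, adjusted p = 6.77e-11). All CDG_HDM lungs were above all Saline lungs for both genes. H2-DMb2, a second DM beta gene of similar sequence that is not a member, was also higher in CDG_HDM than in Saline lungs, by 1.12 ± 0.176 (SE, adjusted p = 1.16e-05). Its mean level was above that of H2-DMb1, at 69.5 against 58.3 TPM in CDG_HDM lungs and 31.8 against 18.4 TPM in Saline lungs.

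The H2-O chains behaved unlike each other. H2-Oa had 5.53, 10.4 and 21.6 TPM in CDG_HDM lungs, against 3.59, 2.57, 2.66, 6.08 and 6.32 TPM in Saline lungs, and the groups overlapped through the lowest CDG_HDM lung. Its log2 change of 1.20 ± 0.243 passed the test (SE, adjusted p = 0.000294). H2-Ob had 11.7, 17.2 and 30.3 TPM in CDG_HDM lungs, against 12.2, 8.35, 12.7, 21.9 and 20.2 TPM in Saline lungs, with much overlap. Its log2 difference of 0.33 ± 0.198 did not pass (SE, adjusted p = 0.206, 95% interval -0.07 to 0.74). It passed where each library was rescaled to a common linear sum, at 0.50 with an adjusted p of 0.0401, and under none of the other settings run.

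Ciita, the transactivator, was at 28.7, 34.5 and 46.6 TPM in CDG_HDM lungs, against 14.9, 11.5, 14.5, 18.2 and 17.5 TPM in Saline lungs. The groups did not overlap. The log2 change of 1.20 ± 0.128 (SE, adjusted p = 2.15e-08) was the same size as that of H2-Oa and below that of the classical chains, Cd74 and the H2-DM chains.

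**Figure D2:**
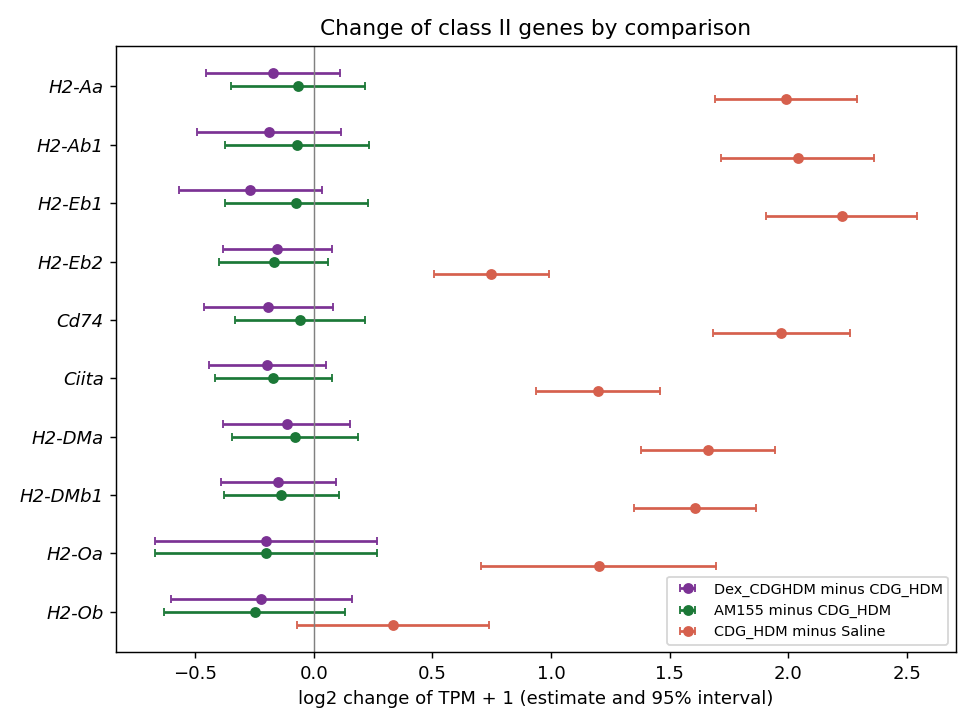
Log2 change of TPM + 1 of each member (x axis, estimate and 95% interval from limma) for Dex_CDGHDM minus CDG_HDM, AM155 minus CDG_HDM and CDG_HDM minus Saline. The CDG_HDM minus Saline intervals lie above 0 for 9 members, and every interval of the treated groups spans 0; the AM155 point estimates of H2-Aa, H2-Ab1, H2-Eb1, Cd74 and H2-DMa turn positive under 3 other scalings.

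Ratios of members within a library do not depend on the share of TPM outside the tables, and 7 were compared in 3 contrasts (21 exact two-sided permutation tests, adjusted together). H2-Ob over H2-DMb1, the inhibitor's beta chain over that of the exchange factor, was 0.227, 0.285 and 0.508 in CDG_HDM lungs (lowest, median, highest), against 0.555 to 0.990 with a median of 0.762 in Saline lungs. Every CDG_HDM lung was below every Saline lung. H2-DMb2, the more abundant DM beta gene, is not part of this ratio. The log2 difference was -1.27 (exact permutation p = 0.000333, the smallest this design allows, adjusted p = 0.00233). H2-Oa over H2-DMa was 0.0621, 0.102 and 0.172 in CDG_HDM lungs, against 0.0879, 0.122 and 0.172 in Saline lungs. That log2(TPM + 1) difference of -0.46 did not pass (exact permutation p = 0.0383, adjusted p = 0.134), but it did without CDG_HDM 4, at -0.54 with an adjusted p of 0.042. The added 1 enlarges this difference, since H2-Oa was at 2.57 to 6.32 TPM in Saline lungs.

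H2-Eb2 over H2-Eb1 was 0.00571 to 0.0118 in CDG_HDM lungs, against 0.0144 to 0.0242 in Saline lungs, with no overlap. The log2(TPM + 1) difference was -1.48 (exact permutation, adjusted p = 0.00233). Here too the added 1 enlarges the difference, since H2-Eb2 was at 2.27 to 4.37 TPM in Saline lungs. H2-DMa over H2-Aa was 0.0695 to 0.0803 in CDG_HDM lungs, against 0.0868 to 0.0920 in Saline lungs, a difference of -0.33, also with no overlap (exact permutation, adjusted p = 0.00233). So the peptide exchange factor and the second E beta gene rose less than the classical chains they were set against. H2-Eb1 over H2-Ab1 was higher in CDG_HDM lungs, at 0.531 to 0.590, against 0.469 to 0.546 in Saline lungs (log2 difference 0.19, exact permutation, adjusted p = 0.00524). Cd74 over H2-Ab1 (log2 difference -0.07, adjusted p = 0.403) and H2-Aa over H2-Ab1 (-0.05, adjusted p = 0.855) did not pass the exact permutation test.

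**Figure D3:**
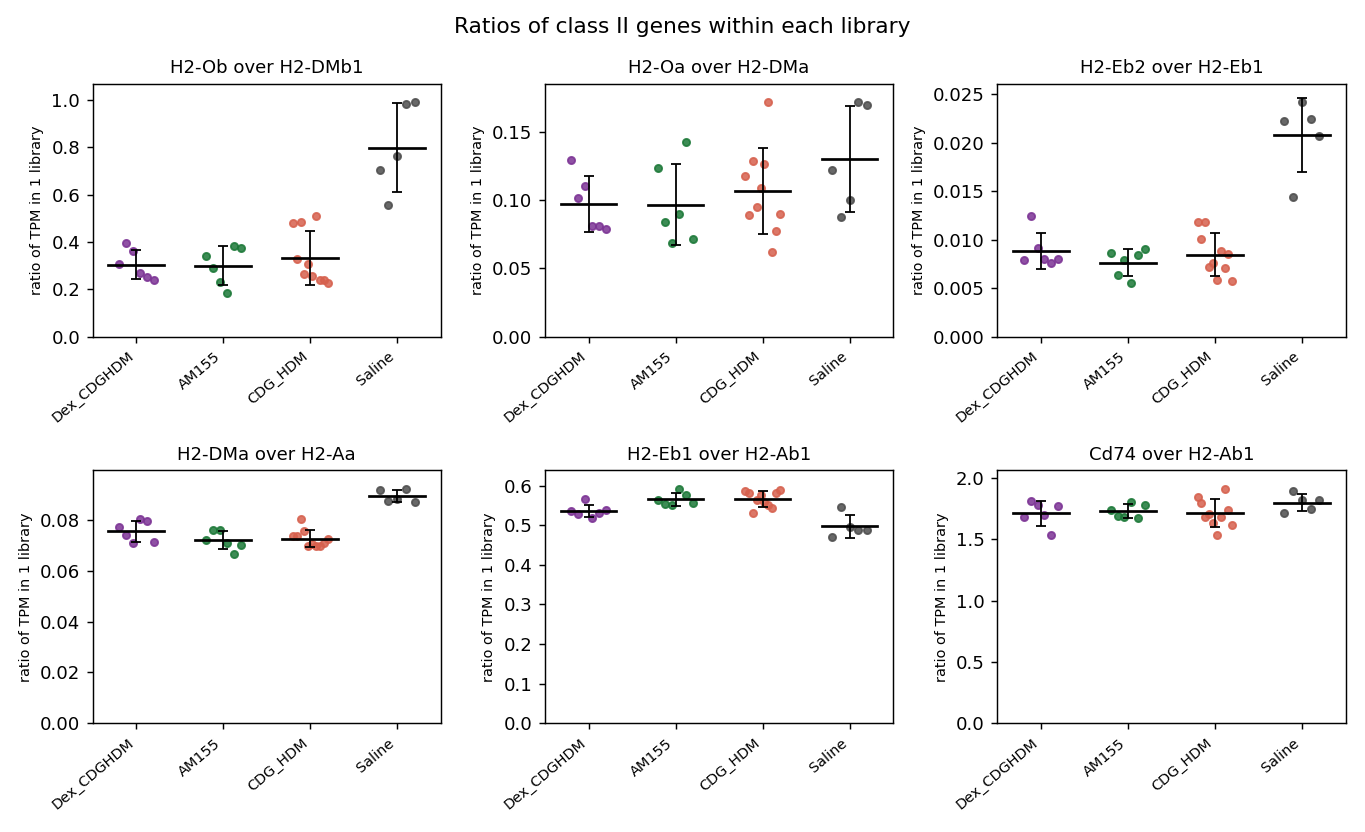
Ratio of the TPM of member pairs in each library (points, y axes from 0), with group mean and SD, for Dex_CDGHDM, AM155, CDG_HDM and Saline lungs. H2-Ob over H2-DMb1, H2-Eb2 over H2-Eb1 and H2-DMa over H2-Aa are lower in every CDG_HDM lung than in every Saline lung.

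The order of member levels was nearly the same in all groups. By mean TPM, Cd74 came first, then H2-Ab1 and H2-Aa, H2-Eb1, H2-DMa, H2-DMb1, Ciita, H2-Ob, H2-Oa and H2-Eb2. H2-Ab1 and H2-Aa could not be ordered, since H2-Ab1 was above H2-Aa in 3 of 6 Dex_CDGHDM, 4 of 6 AM155 and 7 of 10 CDG_HDM libraries, while H2-Aa was above in 2 of 5 Saline libraries. Ciita exceeded H2-Ob in all libraries of the 3 other groups but in only 3 of 5 Saline libraries, and H2-Oa exceeded H2-Eb2 in 4 of 5 Saline libraries. All other neighbours kept their order in each library.

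Neither treatment moved a member past the threshold relative to CDG_HDM, whose lungs both comparisons share. For dexamethasone, 0 of 10 members were called in Dex_CDGHDM minus CDG_HDM, where limma called 0.00573% of all genes, and 0 members had an unadjusted p under 0.05, against 3.97% of all genes. All 10 point estimates were below 0, from -0.27 for H2-Eb1 to -0.12 for H2-DMa, with a median of -0.19 over members and -0.01 over all genes. H2-Eb1 had 488, 717 and 939 TPM in Dex_CDGHDM lungs, against 556, 802 and 1177 TPM in CDG_HDM lungs, with wide overlap. The 95% interval of that difference was -0.57 to 0.03 on the log2 scale. For H2-Oa, the least precise member, it was -0.67 to 0.27.

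For antimiR-155, 0 of 10 members were called in AM155 minus CDG_HDM, where limma called 0.103% of all genes, and 0 had an unadjusted p under 0.05, against 7.24% of all genes. Estimates ran from -0.25 for H2-Ob to -0.06 for Cd74, all below 0 as deposited, but those of H2-Aa, H2-Ab1, H2-Eb1, Cd74 and H2-DMa were above 0 under all 3 other scalings. Their median was -0.11, against -0.08 over all genes. Cd74 had 2025, 2309 and 2920 TPM in AM155 lungs, against 1748, 2499 and 3232 TPM in CDG_HDM lungs, so that the AM155 range lay inside the CDG_HDM range. The 95% interval for Cd74 was -0.33 to 0.21, and for Ciita -0.42 to 0.08. These intervals do not show that the groups were alike.

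Set directly against each other, the treated groups gave 0 called members in Dex_CDGHDM minus AM155, where 0.0803% of all genes were called. The estimates ran from -0.19 to 0.03, and 0 members had an unadjusted p under 0.05, against 7.37% of all genes. Against Saline, 9 of 10 members were higher in Dex_CDGHDM lungs, where 7.59% of all genes were, and 9 of 10 in AM155 lungs, where 7.82% were. These comparisons share the Saline lungs with CDG_HDM minus Saline. H2-Eb1, for example, was higher by 1.96 ± 0.173 in Dex_CDGHDM lungs (SE, adjusted p = 1.69e-09) and by 2.15 ± 0.173 in AM155 lungs (SE, adjusted p = 2.43e-10). H2-Ob again did not pass, at 0.11 ± 0.219 in Dex_CDGHDM (SE, adjusted p = 0.74) and 0.08 ± 0.219 in AM155 lungs (SE, adjusted p = 0.771).

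Of the 7 ratios, 1 passed between treated and CDG_HDM lungs. H2-Eb1 over H2-Ab1 was 0.519, 0.533 and 0.566 in Dex_CDGHDM lungs, against 0.531, 0.570 and 0.590 in CDG_HDM lungs, a log2 difference of -0.08 (exact permutation, adjusted p = 0.0393). The groups overlapped, and leaving out any of 12 single libraries ended that call. In AM155 minus CDG_HDM, 0 of 7 ratios passed.

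Genes of the wider pathway were followed in fixed lists, in CDG_HDM minus Saline. Of the proteins on which Ciita docks (Rfx5, Rfxap, Rfxank, Nfya, Nfyb, Nfyc, Creb1), 0 of 7 passed in either direction, with a median of -0.06. Rfx5, for instance, had 16.5, 18.7 and 24.3 TPM in CDG_HDM lungs, against 11.8 to 21.3 TPM in Saline lungs (0.18 ± 0.124, SE, adjusted p = 0.269). Of 7 genes of interferon gamma signalling toward Ciita (Ifng, Ifngr1, Ifngr2, Jak1, Jak2, Irf1, Socs1), 2 were higher and 0 lower. These were Ifng, the cytokine (1.31 ± 0.147, SE), and Irf1, an interferon-induced transcription factor (0.59 ± 0.128, SE). Ifng itself was scarce, at 1.49, 2.79 and 4.31 TPM in CDG_HDM lungs, against 0.318 to 0.688 TPM in Saline lungs. At such levels the added 1 shrinks the log2 change. The ratio of mean TPM of Ifng was 5.45, against a fold of 2.47 on the log2(TPM + 1) scale.

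Of 5 factors known to act on the Ciita gene, 4 were higher and 0 lower. Irf4 changed most, by 2.21 ± 0.184 (SE, adjusted p = 2.2e-10), with 35.4 to 86.1 TPM in CDG_HDM lungs, against 6.75 to 18.1 TPM in Saline lungs. Irf8, a factor of myeloid and B cells, rose by 1.06 ± 0.123 (SE), and Spi1, which encodes PU.1, by 0.82 ± 0.119 (SE). Prdm1, which represses Ciita in plasma cells, was higher by 0.24 ± 0.0927 (SE, adjusted p = 0.0485). Pax5, the B cell factor of the list, differed by 0.07 ± 0.280 (SE, adjusted p = 0.878).

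Lysosomal processing had 6 of 8 tested genes higher and 0 lower. Ctss, the protease that trims the invariant chain, had 381, 610.1 and 877 TPM in CDG_HDM lungs, against 112 to 135 TPM in Saline lungs, and its change of 2.31 ± 0.162 (SE, adjusted p = 9.05e-12) was above the estimate of every member. Ctsz (1.09), Ctsd (0.94) and Ctsb (0.91), other cathepsins, followed. On the receiving side, Cd4, the class II coreceptor of helper T cells, was higher by 1.66 ± 0.139 (SE) and Lag3, an inhibitory class II receptor, by 0.69 ± 0.142 (SE). Of the costimulatory molecules of presenting cells, Cd86 (1.55 ± 0.113, SE) and Cd80 (0.44 ± 0.0990, SE) rose, while Cd40 differed by -0.02 ± 0.116 (SE, adjusted p = 0.908). In both treated groups, 0 genes of any of these lists were called against CDG_HDM by limma. Ifng, lower in Dex_CDGHDM by -0.60 ± 0.138 (SE), had an adjusted p of 0.196.

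**Figure D4:**
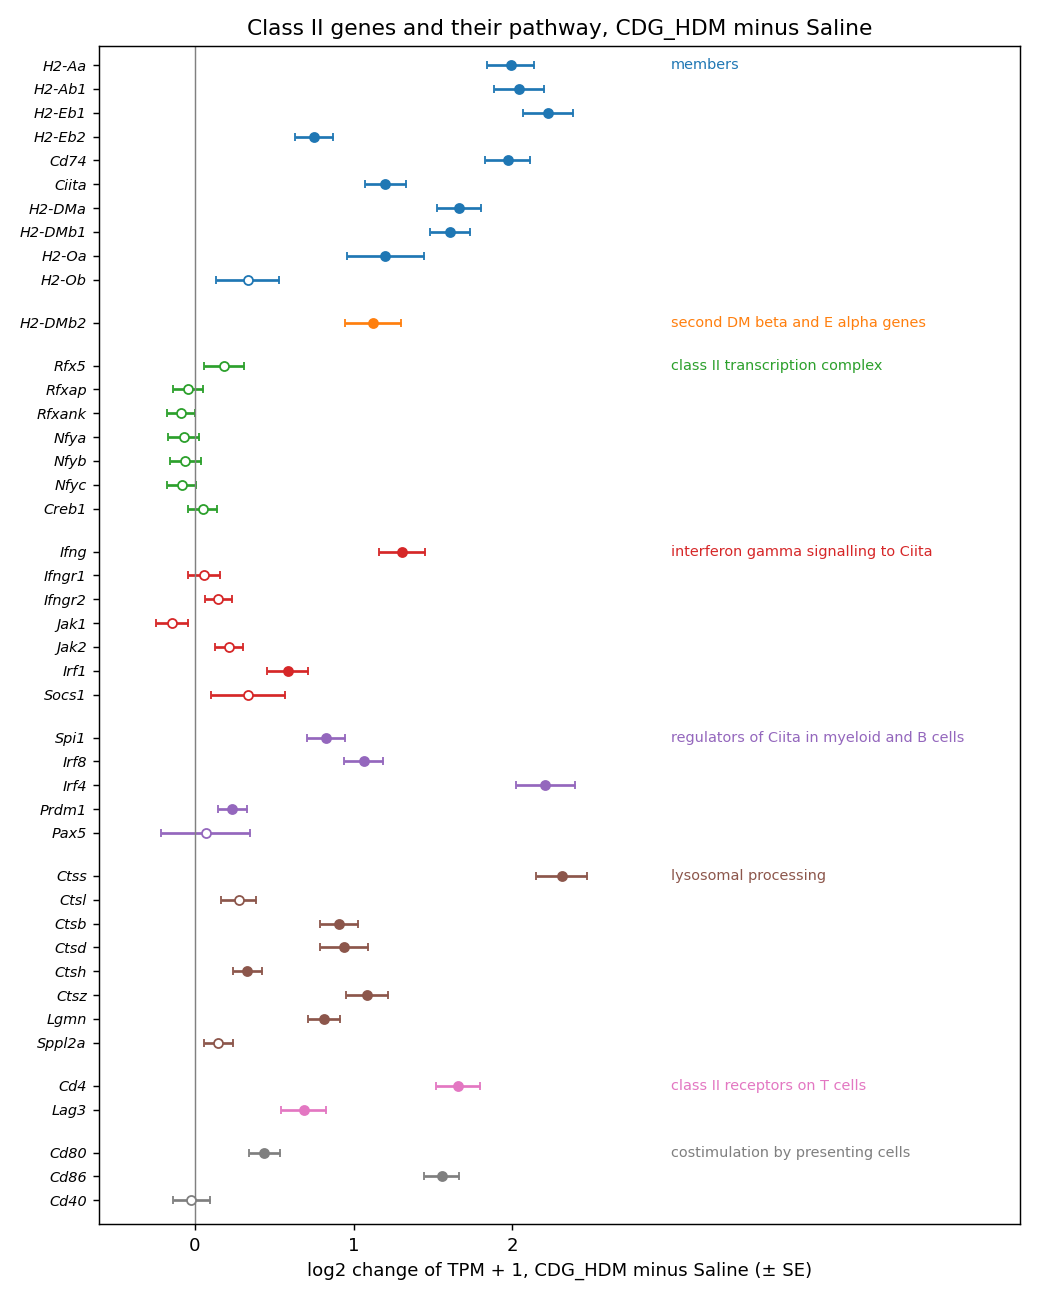
Log2 change of TPM + 1 in CDG_HDM minus Saline (x axis, ± SE) of the 10 members and of the genes of 7 pathway lists, named at right. Filled points have an adjusted p under 0.05; 9 members, 0 of 7 genes of the transcription complex and 6 of 8 lysosomal genes are filled.

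Markers of class II bearing cells moved unequally between these groups. All 8 markers of the interstitial macrophage list (C1qa, C1qb, C1qc, Csf1r, Adgre1, Mrc1, Cx3cr1, Cd68) were higher in CDG_HDM than in Saline lungs. Their summed level was 715 to 1298 TPM in Dex_CDGHDM, 907 to 1142 TPM in AM155, 669 to 1501 TPM in CDG_HDM and 239 to 269 TPM in Saline lungs. Of 10 B cell markers 2 were higher and 0 lower, and the summed level was 243 to 348 TPM in Dex_CDGHDM, 197 to 371 TPM in AM155, 241 to 516 TPM in CDG_HDM and 220 to 440.3 TPM in Saline lungs. The groups overlapped widely for B cell markers, as for H2-Ob.

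Of 8 conventional dendritic cell markers, Flt3, Xcr1 and Batf3 were higher and Cd209a was lower. Their summed level was 93.2 to 129.97 TPM in Dex_CDGHDM, 93.7 to 137 TPM in AM155, 106 to 138 TPM in CDG_HDM and 97.7 to 137 TPM in Saline lungs. The alveolar type 2 list had 2 of 6 markers higher and 0 lower, and the alveolar macrophage list 2 of 7 higher and 2 lower. Summed alveolar macrophage markers were at 235 to 532 TPM in Dex_CDGHDM, 237 to 460 TPM in AM155, 269 to 493.1 TPM in CDG_HDM and 251 to 294 TPM in Saline lungs. Monocyte markers were higher for 2 of 5 and lower for 1, with 185 to 315 TPM in Dex_CDGHDM, 245 to 398 TPM in AM155, 185 to 314 TPM in CDG_HDM and 118 to 186 TPM in Saline lungs.

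T cells and plasma cells, which show little class II in mice, had markers that moved too. T cell markers were higher for 5 of 5 tested, with a summed level of 105 to 189 TPM in Dex_CDGHDM, 156 to 220.4 TPM in AM155, 161 to 287 TPM in CDG_HDM and 56.8 to 99.2 TPM in Saline lungs. Plasma cell markers were higher for 6 of 7, with 1532 to 3070 TPM in Dex_CDGHDM, 1963 to 3711 TPM in AM155, 2027 to 3931 TPM in CDG_HDM and 236 to 262 TPM in Saline lungs. No marker of any list was at 0 throughout. The part of these cells in the members' change was not tested.

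After each group's mean was removed, the members still differed in how they varied between mice. Over 27 libraries, H2-Aa, H2-Ab1, H2-Eb1, Cd74, H2-DMa and H2-DMb1 correlated with each other at a Pearson r of 0.85 to 0.98. H2-Ob correlated with those 6 genes at only 0.30 to 0.38, but with H2-Eb2 at 0.89 and with H2-Oa at 0.78. These values are descriptions over libraries that share a TPM scale.

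The same measure, over 17427 other genes, named the genes most like 3 members. For Ciita they were Irf8 (r = 0.94), Ccdc88b, Vav1, H2-M3 and Laptm5, all higher in CDG_HDM than in Saline lungs. For Cd74 they were Mpeg1 (r = 0.93), Tmem106a, Cd300c2, Rnf19b and Csf1r, also all higher. For H2-Ob they included Bank1 (r = 0.98), Bcl11a, Fcrl1 and Cd37, of which Cd37 alone passed the test (0.67 ± 0.191, SE, adjusted p = 0.00743). Bank1 had 6.71, 11.0 and 20.4 TPM in CDG_HDM lungs, against 5.40 to 16.9 TPM in Saline lungs, and the lung highest in Bank1, CDG_HDM 4, was also highest in H2-Ob.

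**Figure D5:**
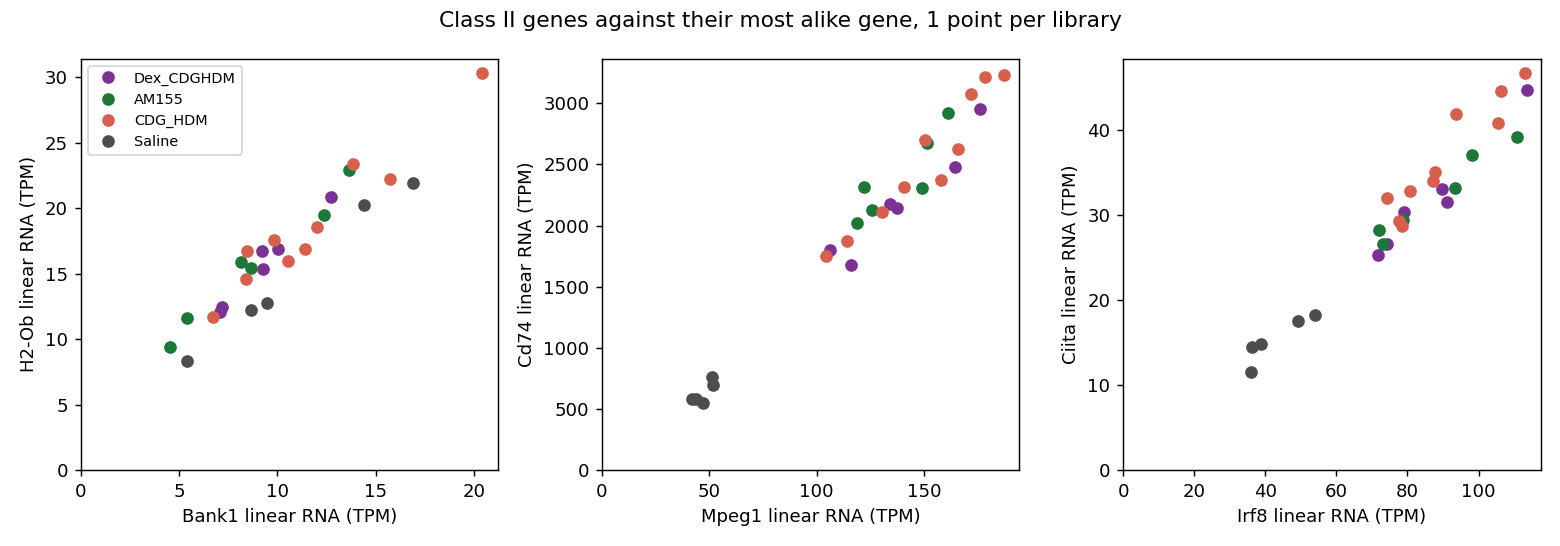
TPM of H2-Ob against Bank1, of Cd74 against Mpeg1 and of Ciita against Irf8, with 1 point per library coloured by group. Saline points lie among the others for H2-Ob and Bank1, and apart at low values for the other pairs.

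Within the 10 CDG_HDM lungs, Ciita was compared with each other member, and Ifng with Ciita (10 relations, permutation p-values adjusted together). Pearson's r with Ciita was 0.82 for H2-DMa (Spearman's rho 0.72), 0.80 for H2-Ab1 (rho 0.62) and 0.79 for Cd74 (rho 0.76), each with an adjusted permutation p of 0.0224 for r. H2-Eb1, H2-DMb1, H2-Aa and H2-Oa also passed by Pearson's r, and H2-Eb2 (0.56) and H2-Ob (0.41) did not. For Ifng and Ciita, r was 0.60 (adjusted permutation p = 0.084) and rho 0.56. By Spearman's rho 0 of 10 relations passed, with a lowest adjusted permutation p of 0.0963. Without CDG_HDM 4 and CDG_HDM 13, the 2 lungs farthest from the median Ciita level, 0 relations of Ciita with another member passed by r over the 8 that remained. For H2-DMa r was then 0.69 (adjusted permutation p = 0.167), and it was also lower for H2-Ab1, Cd74, H2-Eb1, H2-Aa and H2-Oa. Leaving out the lungs most extreme in Ciita narrows its range and leaves fewer lungs. The lower r therefore cannot show whether these called relations rest on those 2 lungs. For H2-DMb1 r was 0.79, against 0.78 with all 10 lungs (adjusted permutation p = 0.167). For Ifng and Ciita, the 2 lungs left out were instead those farthest from the median Ifng level. There r was 0.73 (adjusted permutation p = 0.167).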

How the data were processed

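The authors deposited TPM per gene symbol for 27 libraries in 2 tables, of linear and of circular RNA. Per the labels' protocols, total RNA of the left lung lobe was depleted of ribosomal RNA and sequenced as stranded paired-end libraries. Per the submitters' processing notes, build mm10 and CASAVA 1.9 were used; for aligner, quantifier and annotation, the choice is not given in the sources used here. TPM holds no depth, so no counting interval is given. Linear TPM were fitted as log2(TPM + 1) with limma 3.58.1 (R 4.3.3), 4 groups in 1 fit with a mean-variance trend over the filtered genes, and p-values were adjusted by Benjamini-Hochberg over all genes. A fold on this scale understates the change of low genes. Ratios of 2 members were compared, as differences of log2(TPM + 1), by exact permutation tests, and relations by 100000 permutations (scipy 1.17.1). The labels do not state in words that each library is of its own mouse; otherwise p-values would measure only the spread between libraries. Alternatives were 2 other pseudocounts, no filter, 3 scalings, no trend, 2 groups only, a replicate block and leaving out libraries. Named were all members, every gene of lists of 5 or fewer, the 4 most changed called genes of longer lists, and the 5 genes most like Ciita, Cd74 and H2-Ob; values of Rfx5 and names of single cell markers were added after values were seen. Members, lists and markers were chosen with earlier results of these data known. The list of class II turnover ligases matched 0 symbols, 26 symbols of the table having been turned into dates, and H2-Ea is not analysed here. Single genes of 2 lists are not reported here.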

Additional observations from a re-analysis of the deposited data

Results flagged for a closer look

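H2-Eb2 in CDG_HDM 4 was 9.29 TPM, the highest of its group by a gap of 0.516 of the group's range (n = 10). It is 1 of 40 combinations of member and group checked for a lone sample, where chance flags about 1 in 20. The same lung was the highest of its group in H2-Oa, H2-Ob, Ciita and Bank1.

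Of the 10 members, Ciita alone had a row in the table of circular RNA, which gives no junctions, so its values cannot be assigned to a particular circular RNA. Circular Ciita was 464 TPM in AM155 2, 423 TPM in AM155 6 and 8.25 TPM in AM155 3, and 6.77 TPM in CDG_HDM 12. It was listed at 0 in AM155 5, AM155 8 and AM155 11 and in all other CDG_HDM lungs. In Saline lungs it was 2.65 TPM in Saline 5 and listed at 0 in the other 4, and it was listed at 0 in all Dex_CDGHDM lungs. AM155 6, unlike AM155 2, was among the libraries in which circular RNA held over 200000 TPM. Linear Ciita was 39.1 TPM in AM155 2, the highest of the AM155 group, and 28.3 TPM in AM155 6, where the lowest of the group was 26.6 TPM. These circular values were not used in any comparison.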

How the results depend on the processing

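In 5 of the 6 comparisons the counts of members called were the same under every alternative run; in CDG_HDM minus Saline 9 were higher under each of them except rescaling to a common linear sum, where 10 were. Over all genes in CDG_HDM minus Saline, 1631 were higher and 3976 lower as deposited, 4571 and 2697 after rescaling to a common linear sum, 3903 and 3757 with median-of-ratios scaling, 3571 and 4250 with quantile normalization, and 1655 and 7303 without the 4 libraries that stand apart, an alternative chosen after seeing the data. The median of all genes was -0.10, 0.04, 0.01, -0.01 and -0.16 in that order, and that of the members 1.64, 1.80, 1.75, 1.71 and 1.59. In AM155 minus CDG_HDM, H2-Aa, H2-Ab1, H2-Eb1, Cd74 and H2-DMa turned positive, at 0.0507, 0.0472, 0.0447, 0.0600 and 0.0376 when rescaled, 0.0172, 0.0137, 0.0112, 0.0265 and 0.0042 with median-of-ratios scaling, and 0.0277, 0.0163, 0.0463, 0.112 and 0.0321 with quantile normalization.

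Over 20 same-numbered pairs of libraries from different groups, residuals correlated at -0.239 to 0.274 (median 0.0246) and 2 exceeded 0.1. Over 246 differently numbered pairs they correlated at -0.469 to 0.472 (median -0.00815) and 69 exceeded 0.1. These values gave no sign that replicate numbers paired the samples, but cannot show that they did not. With the replicate block, 9 members stayed higher in CDG_HDM minus Saline, and all genes called were 3315 instead of 5607. Under it H2-DMa in Dex_CDGHDM minus CDG_HDM was 0.0070, and in AM155 minus CDG_HDM H2-Aa, H2-Ab1, H2-Eb1, Cd74, H2-DMa, H2-DMb1 and H2-Oa were 0.235, 0.241, 0.258, 0.182, 0.209, 0.109 and 0.0347; the cause was not tested.

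Leaving out 1 library at a time gave 0 to 1 ratios called in Dex_CDGHDM minus CDG_HDM. H2-Ob ranged from -0.0654 to 0.258 in Dex_CDGHDM minus Saline and from -0.0918 to 0.232 in AM155 minus Saline, with both lowest values without Saline 4. The log2 ratio of H2-Aa over H2-Ab1 ranged from -0.0738 to 0.0014 in CDG_HDM minus Saline, and that of H2-Eb1 over H2-Ab1 from -0.0155 to 0.0047 in AM155 minus CDG_HDM. Relations with Ciita called numbered 7, and 0 without the 2 lungs farthest on the x axis, where 8 lungs remained; r then fell for 6 of those 7 relations and was 0.793 for H2-DMb1, against 0.775 with all lungs. TPM gives no depth, so low levels such as H2-Eb2 and H2-Oa have a precision that is known only from the spread between libraries.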
